A study of Mus musculus with 28 samples.

Results

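The 50 genes described here drive or mark the mitotic cell cycle in mouse molar tooth germs. They were taken by gene symbol from the 52636 genes of the count table, by a rule that used no measured value. Earlier results of these data were known when they were chosen. All 50 passed the filter on low counts that left 19101 genes for testing. By their known roles they form 4 groups, with 9 cyclins, kinases and phosphatases of G1, 14 genes of DNA replication, 22 genes of G2 and mitosis, and 5 transcription factors. Counts per member and tooth ranged from 191 for Ccne1 to 37184 for Mki67, so that every member was detected in every tooth.

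RNA was sequenced from single first molar tooth germs of C57BL/6JOlaHsd mice at the bud stage (E13, labelled E13.5), the cap stage (E14, labelled E14.5) and the bell stage (E16, labelled E16.5). Each of these stages had 7 teeth, from 7 embryos at E13 (4 left and 3 right teeth), 6 embryos at E14 (2 left and 5 right) and 5 embryos at E16 (4 left and 3 right). A later set of 6 lower first molars labelled wild type and E15, from 6 embryos with 3 left and 3 right teeth, was available in a second table that also holds the E13 and E16 teeth. No group carried a labelled allele or treatment. The E15 teeth were dissected and prepared under a separate protocol, so that stage and preparation cannot be told apart for them. Some teeth came from the same embryo, and p-values therefore measure the spread between teeth rather than between embryos. Total counts per tooth ran from 17814073 to 27115729, and levels are given as CPM, the count of a gene relative to the size of its library after TMM scaling.

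In a dividing cell, D-type cyclins with Cdk4 and Cdk6, followed by cyclin E with Cdk2, inactivate the retinoblastoma protein in G1 and release E2F factors, which switch on the genes of DNA replication. Genes of G2 and mitosis are switched on later by the MuvB complex with B-Myb (Mybl2) and Foxm1, and the kinase Cdk1 with B-type cyclins then drives the cell through mitosis. In the molar, the enamel knot of the cap stage is known as a signaling center whose cells leave the cell cycle while the epithelium and mesenchyme around it divide.

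Whole germs hold many cell types. All 10 dental epithelium and all 10 dental mesenchyme markers were tested and none was at 0 in all teeth. The summed level of the epithelial markers was 891 to 1333 CPM at E13, 1855 to 2321 CPM at E14 and 2413 to 4146 CPM at E16, and all 10 were called higher at E14 and at E16 than at E13. Mesenchymal markers summed to 5082 to 5662, 4846 to 5688 and 2395 to 5253 CPM. Macrophage markers rose from 43.0 to 66.5 CPM at E13 to between 81.4 and 157.5 CPM at E16, with 8 of 8 called higher. Red cell markers summed to 239 to 444 CPM at E13 and 39.3 to 116 CPM at E16, with 2 called higher and 2 lower. Among them the globin Hbb-y fell from a median of 256.8 to 1.539 CPM, and Hbb-bt went from 20.86 to 36.41 CPM. The part of these shifts in marker levels in the results on the cell cycle genes was not tested. In RNA from whole germs, fewer dividing cells and less of each transcript per dividing cell cannot be told apart.

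Libraries of E16 stood apart from their stage. Among the E16 teeth, the left one of embryo 3 had the lowest depth of all 21 and a TMM factor of 1.19, against 0.8496 to 1.04 in the other 20 teeth. Its deviations from the median of the other teeth of its stage were related to the GC content of the longest transcript, with r of -0.62. This was across 12814 genes, which are not independent replicates, and the other teeth had r of -0.36 to 0.49. Its mesenchymal markers summed to 2395 CPM, against 4179 to 5253 CPM in the other 6 E16 teeth. Of the 50 members, 29 were below all other E16 teeth in it, 13 above and 8 within their range. The right tooth of embryo 7 at E16 had the TMM factor of 0.8496, where the next lowest was 0.9516. Its chi-square per degree of freedom against the other E16 teeth was 139.9 to 280.6, as for the left tooth of embryo 3 (128.8 to 280.6), whereas pairs of the other 5 teeth had 14.56 to 113.7. The counts of called members and the scores are given with and without the left tooth of embryo 3. So are some of the single genes whose call or value it moved. Without the right tooth of embryo 7, 8 members were called higher at E14 than at E13, 38 lower at E16 than at E14 and 30 lower at E16 than at E13.

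Of the promoters of the members, 5 are shown here with the matches to sites of the known regulators of these waves of transcription, among them windows without an E2F or CHR match. The sequences are RefSeq windows of the GRCm38.p6 build, 300 bases long, from 250 bases before to 50 after the annotated start, and 40 of the 50 members had one. Rrm2, Mcm5, Cdc20 and Mybl2 were chosen as genes of the replication, mitosis and transcription factor groups with large differences between E13 and E16, and Cdk1 as the central kinase of mitosis. Capitals mark matches on either strand to an E2F site (TTTGGCGC, TTTCCCGC, TTTCGCGC or TTTGCCGC), to the cell cycle homology region or CHR, which MuvB binds (TTTGAA), or to the box bound by NF-Y (CCAAT).
Rrm2: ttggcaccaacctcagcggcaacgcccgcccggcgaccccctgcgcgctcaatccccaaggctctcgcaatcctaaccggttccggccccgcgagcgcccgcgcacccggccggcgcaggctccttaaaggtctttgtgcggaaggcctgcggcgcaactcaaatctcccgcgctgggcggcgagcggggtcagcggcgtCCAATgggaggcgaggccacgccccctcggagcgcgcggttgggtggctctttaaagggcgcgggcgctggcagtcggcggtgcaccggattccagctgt
Cdc20: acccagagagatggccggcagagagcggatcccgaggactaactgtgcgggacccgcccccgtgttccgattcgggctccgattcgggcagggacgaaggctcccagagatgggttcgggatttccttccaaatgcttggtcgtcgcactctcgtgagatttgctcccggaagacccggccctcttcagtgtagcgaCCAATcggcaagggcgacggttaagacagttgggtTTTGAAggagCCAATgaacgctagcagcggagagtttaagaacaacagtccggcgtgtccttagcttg
Mybl2: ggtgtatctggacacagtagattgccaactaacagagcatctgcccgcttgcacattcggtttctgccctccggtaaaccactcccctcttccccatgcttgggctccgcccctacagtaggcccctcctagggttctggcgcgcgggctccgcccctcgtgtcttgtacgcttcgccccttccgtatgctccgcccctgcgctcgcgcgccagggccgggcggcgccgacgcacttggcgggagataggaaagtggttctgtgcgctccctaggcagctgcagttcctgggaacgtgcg
Cdk1: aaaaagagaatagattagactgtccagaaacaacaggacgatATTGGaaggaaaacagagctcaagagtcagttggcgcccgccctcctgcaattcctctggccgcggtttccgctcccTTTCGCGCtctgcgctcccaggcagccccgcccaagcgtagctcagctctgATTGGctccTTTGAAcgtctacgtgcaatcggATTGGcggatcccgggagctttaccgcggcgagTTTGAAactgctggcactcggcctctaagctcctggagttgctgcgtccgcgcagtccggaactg
Mcm5: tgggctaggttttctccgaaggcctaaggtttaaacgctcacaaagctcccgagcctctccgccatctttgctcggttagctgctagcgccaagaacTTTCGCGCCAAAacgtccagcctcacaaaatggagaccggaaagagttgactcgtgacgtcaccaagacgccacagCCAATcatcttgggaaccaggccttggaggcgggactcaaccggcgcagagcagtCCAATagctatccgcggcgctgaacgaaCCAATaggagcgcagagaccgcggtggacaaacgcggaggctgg

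Rrm2 (chr12:24708004-24708303, plus strand) held 1 NF-Y box, at -50 to -46 relative to the start. Mcm5 (chr8:75109259-75109558, plus strand) held a pair of overlapping E2F matches, at -153 to -146 and -149 to -142, and 3 NF-Y boxes. Cdc20 (chr4:118437294-118437593, minus strand) held a CHR at -18 to -13 and 2 NF-Y boxes, at -53 to -49 and -8 to -4. Cdk1 (chr10:69352863-69353162, minus strand) held all 3 kinds, with an E2F match at -131 to -124, CHR matches at -71 to -66 and -15 to -10, and 3 NF-Y boxes. Mybl2 (chr2:163054385-163054684, plus strand) had no match in its window. The starts used for Mcm5 and Mybl2 lay 60 and 52 bases from the nearest start in the GENCODE gene annotation, so that their positions are less certain.

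The 3 motifs were spread unevenly over the roles. An E2F match was present for 6 of 12 replication genes (50%) and 1 of 18 mitosis genes (5.556%), and for 704 of all 27025 genes with a window (2.605%). A CHR match was present for 12 of 18 mitosis genes (66.67%), 2 of 12 replication genes (16.67%), none of 6 genes of G1 and 5466 of all genes (20.23%). NF-Y boxes were the most frequent, in 16 of 18 mitosis genes, 9 of 12 replication genes and 11096 of all genes (41.06%). Matches are descriptions of letters and not of binding.

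**Figure D1:**
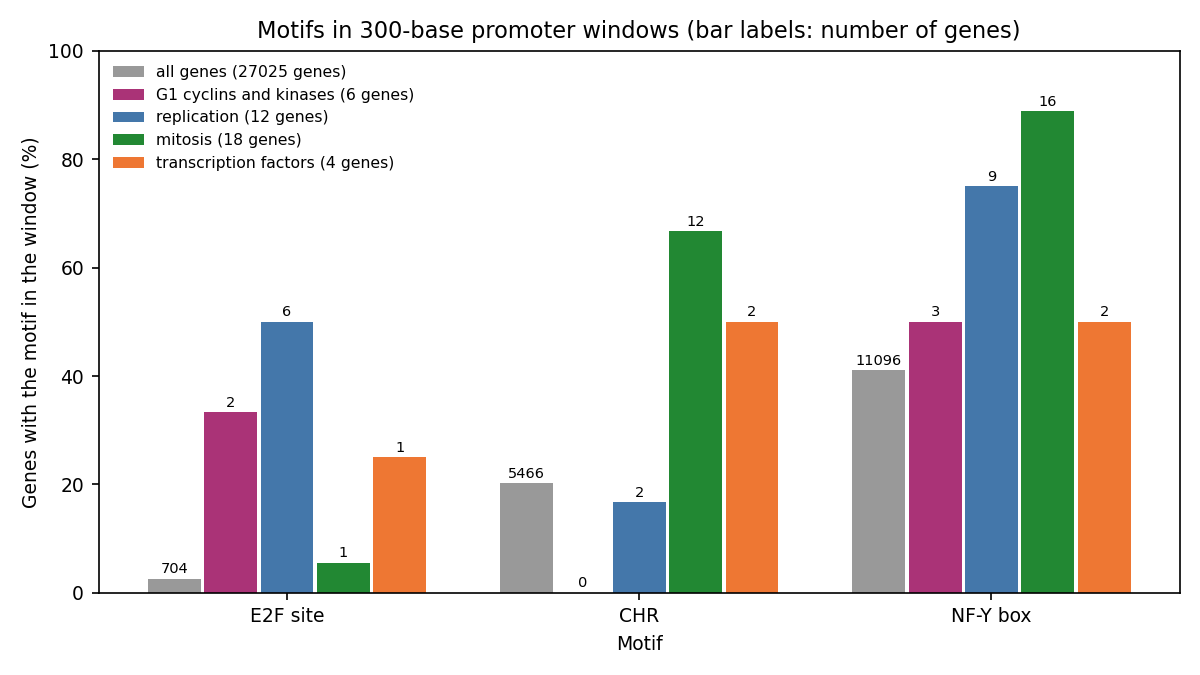
Share of genes (percent, y axis from 0) whose 300-base promoter window holds an E2F site, a CHR or an NF-Y box, for the members by role and for all genes with a window. E2F matches are most frequent in replication genes (50%) and CHR matches in mitosis genes (66.67%), against 2.605% and 20.23% of all genes.

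Between the bud and the cap stage, 8 of the 50 members rose and none fell in the edgeR quasi-likelihood test (adjusted p below 0.05 over all tested genes), where 11.3% of all genes rose and 8.47% fell. The 8 genes were Ccnd2, Cdk6 and Ccne2 of G1 and Ccna2, Cdc25c, Mad2l1, Kif23 and Mki67 of mitosis. At an unadjusted p below 0.05, 15 members were higher and 0 lower, and DESeq2 called the same 8 higher and 0 lower. The share of members called higher was thus near that of all genes. The median log2 fold change of the members was 0.11 and that of all genes -0.0083.

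Without the E16 left tooth of embryo 3, which enters this comparison only through the shared fit, 19 members were called higher at E14 and 1, Mcm2, lower (log2 fold change -0.16, adjusted p = 0.00976 in edgeR), where 16.67% of all genes rose and 13.76% fell. The 11 added were Ccnb2, Cdk1, Cdc25b, Plk1, Aurka, Aurkb, Cenpe, Kif11 and Kif20a of mitosis and the factors E2f8 and Foxm1, and no replication gene was among them. Other teeth moved the count downwards, to 4 without the E14 left tooth of embryo 6 and to 5 without the E14 left tooth of embryo 8. With each of the 21 teeth left out in turn, Ccnd2, Cdk6, Ccna2 and Mki67 were called higher every time.

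From the cap to the bell stage, 41 of 50 members fell and none rose, where 13.1% of all genes fell and 15% rose. The median log2 fold change of the members was -0.42, against 0.0037 for all genes, and 49 of 50 members had a value below 0. No member was higher at an unadjusted p below 0.05 or in DESeq2, which called 41 lower. From the bud to the bell stage, 32 members fell and none rose, where 19.6% of all genes fell and 21.6% rose, with a median of -0.30 against -0.0095. Here 0 members were higher at an unadjusted p below 0.05 and by DESeq2, which called 31 lower. Without the E16 left tooth of embryo 3, 43 members were lower at E16 than at E14 and 36 lower at E16 than at E13, where 15.8% and 23.14% of all genes were.

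**Figure D2:**
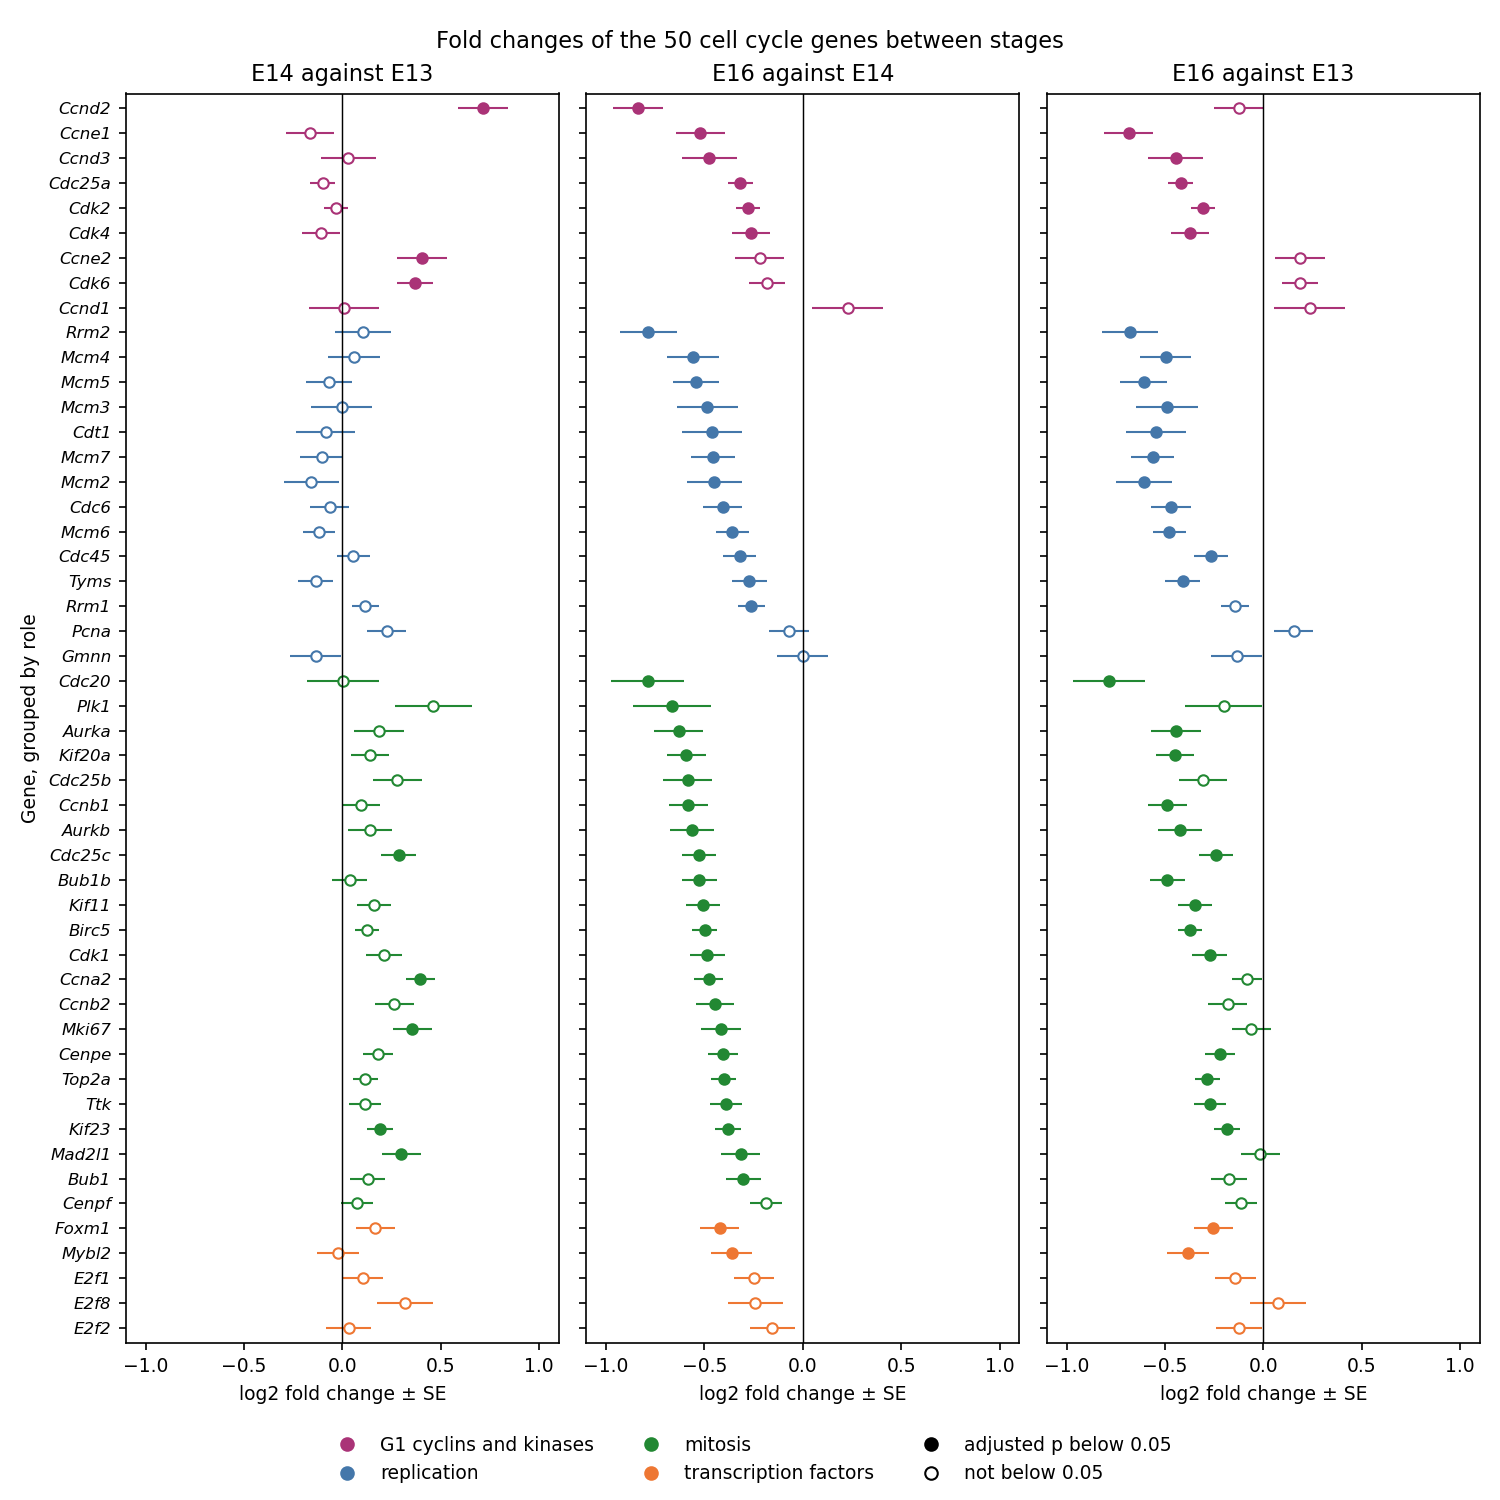
Log2 fold changes of the 50 members between stages (x axis, log2 scale) by role, with bars for the standard error and filled points for genes called in edgeR. Most members lie near or above 0 from E13 to E14, and 49 of 50 lie below 0 from E14 to E16.

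By the order of calls, 30 members fell from E14 to E16 and were lower at E16 than at E13, with no call from E13 to E14. A further 5, Rrm1, Ccnb2, Cdc25b, Plk1 and Bub1, were called only from E14 to E16. Cdc25c and Kif23 rose to E14 and then fell below their E13 level, and Ccnd2, Ccna2, Mad2l1 and Mki67 rose and fell without a call between E13 and E16. Cdk6 and Ccne2 rose to E14 with no later call, and 7 genes, Ccnd1, Gmnn, Pcna, Cenpf, E2f1, E2f2 and E2f8, were called in none of the comparisons. Of these 7, Ccnd1, Gmnn, Cenpf and E2f8 had a call without the E16 left tooth of embryo 3. Ccne2 was then also called lower at E16 than at E14, and Cdk6 higher at E16 than at E13.

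Replication and mitosis genes were compared through a score for each tooth, the mean log2 CPM over the genes of a role. Scores are given as descriptions with no test. With all 50 members the score averaged 6.50 ± 0.054 in the bud, 6.61 ± 0.047 in the cap and 6.17 ± 0.184 in the bell stage teeth (SD, n = 7 per stage). The E16 teeth lay below all E13 and E14 teeth, whereas the E13 and E14 teeth overlapped. Without the E16 left tooth of embryo 3, the E16 score was 6.24 ± 0.020 (SD, n = 6).

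The mitosis score rose from bud to cap where the replication score did not. Mitosis genes scored 6.65 ± 0.050 at E13 and 6.84 ± 0.058 at E14 (SD, n = 7 each), a difference of 0.19 ± 0.029 (SE), and the teeth of the stages did not overlap. Replication genes scored 6.45 ± 0.081 and 6.43 ± 0.059, a difference of -0.023 ± 0.038, with overlapping teeth. Within each tooth, mitosis exceeded replication by 0.13 to 0.31 at E13 and by 0.36 to 0.49 at E14, again with no overlap. Both scores were then lower at E16, by -0.51 ± 0.047 for mitosis and -0.42 ± 0.090 for replication relative to E14.

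At E16 the distance between the 2 scores was 0.33 ± 0.132 and reached 0.62 in the left tooth of embryo 3. The median GC content of the longest transcript was 49.23% for replication and 46.44% for mitosis genes, and the part of GC content in the distance was not tested. In the other 6 teeth it was 0.28 ± 0.034, from 0.23 to 0.32, below every E14 tooth and overlapping the E13 teeth. Left and right teeth of the same embryo were available for 3 embryos. Over all members the score differed between left and right by 0.032 for embryo 6 at E14 and by 0.0087 and -0.057 for embryos 6 and 8 at E16. The teeth of embryo 8 were the lowest and the highest of the 6 E16 teeth other than the left tooth of embryo 3, also for mitosis, where they differed by -0.13.

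**Figure D3:**
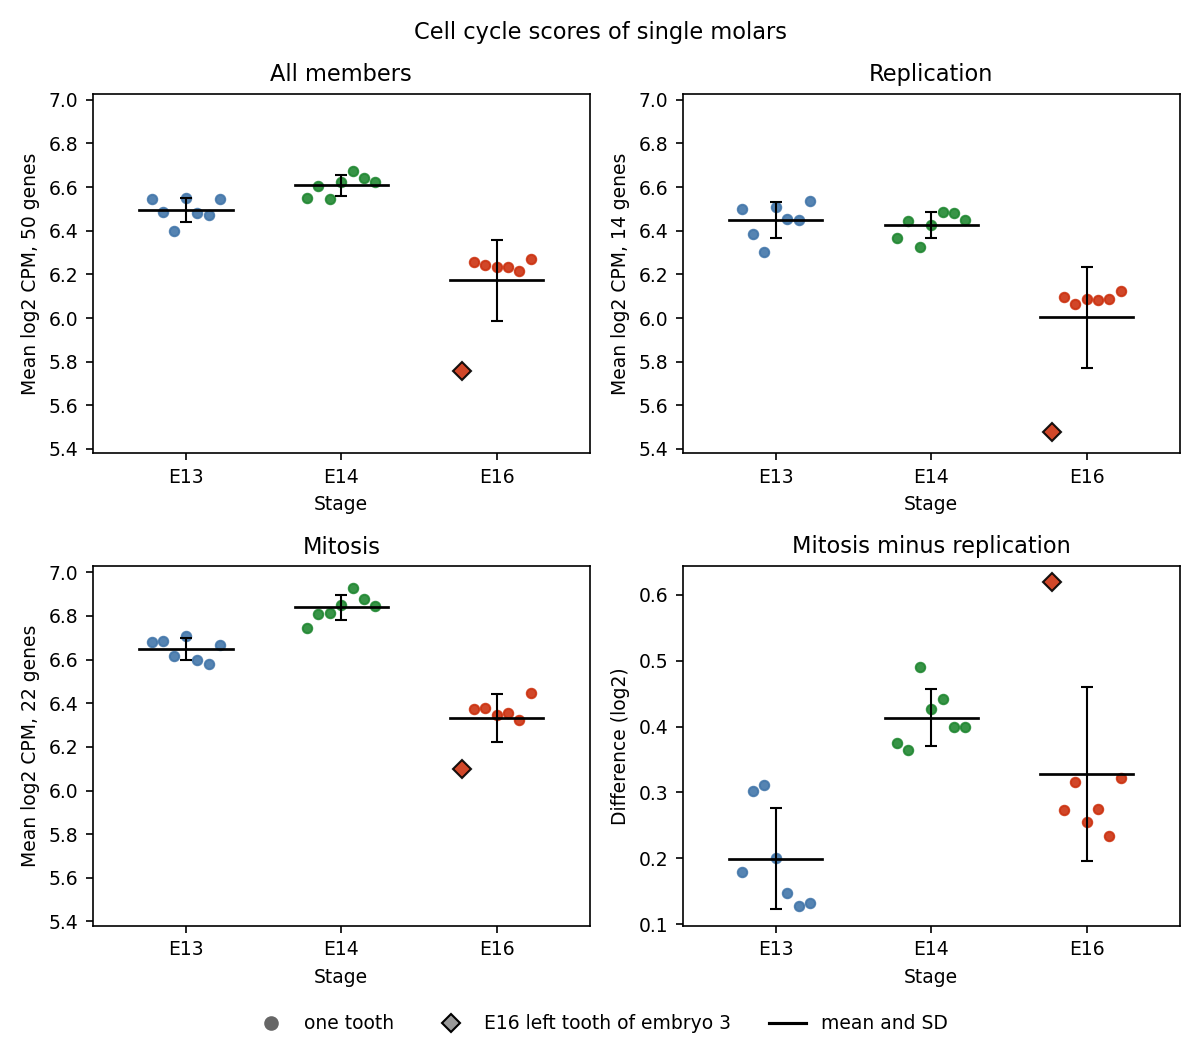
Mean log2 CPM of all members, replication genes and mitosis genes, and the difference between mitosis and replication, for each tooth (points) at E13, E14 and E16 (7 teeth each), with the mean and SD. The E14 teeth lie above all E13 teeth for mitosis but not for replication, and the E16 left tooth of embryo 3 is the lowest for both.

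From E13 to E14, 3 of 9 G1 genes rose with a median log2 fold change of 0.0079, and from E14 to E16, 6 of 9 fell with a median of -0.28. Between E13 and E16, 5 of 9 fell, namely Ccnd3, Cdk4, Ccne1, Cdk2 and Cdc25a. With the left tooth of embryo 3 left out, 7 fell and 1 rose from E14 to E16, and 5 fell and 2 rose between E13 and E16.

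The D-type cyclins, which start the passage through G1, each had a course of their own. Ccnd2 was at 751 to 883 CPM in the E13 teeth (median 850), at 1270 to 1524 CPM at E14 (median 1356) and at 366 to 865 CPM at E16 (median 823). Every E14 tooth was thus above every tooth of the other stages, and the lowest value belonged to the E16 left tooth of embryo 3. Ccnd2 rose by 0.71 ± 0.13 on the log2 scale from E13 to E14 (SE, adjusted p = 0.000211 in edgeR) and changed by -0.84 ± 0.13 from E14 to E16 (adjusted p = 1.68e-05), the largest change of any member at both steps. Between E13 and E16 its difference was -0.12 ± 0.13 (adjusted p = 0.471 in edgeR), and 0.012 without that tooth of embryo 3. Per kilobase of exon it was the third most abundant member at E13, with 88.6 CPM, and the first at E14, with 145.4 CPM.

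Ccnd1 was at 86.9 to 101.9 CPM at E13 (median 98.6), 83.2 to 107.1 CPM at E14 (median 98.7) and 34.7 to 148.1 CPM at E16 (median 130.6). The E13 and E14 teeth overlapped almost fully, and 6 of 7 E16 teeth had 104.3 CPM or more while the left tooth of embryo 3 had 34.7 CPM. With all teeth its log2 difference between E16 and E13 was 0.24 ± 0.18 (SE, adjusted p = 0.312 in edgeR). Without that tooth it was 0.41 ± 0.074 (adjusted p = 5.79e-05 in edgeR), and Ccnd1 and Cdk6 were then the only members called higher at E16 than at E13. Ccnd1 was then also the 1 member higher at E16 than at E14 (0.40, adjusted p = 1.21e-04 in edgeR). Of the exon bases of Ccnd1, 23.4% are shared with a gene on the opposite strand, and whether counting used strand was not given in the sources used here.

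Ccnd3 was at 135.1 to 162.3 CPM at E13 (median 150.2), 133.8 to 173.6 CPM at E14 (median 148.5) and 48.2 to 131.1 CPM at E16 (median 119.7). Its E16 teeth lay below all E13 and E14 teeth, and it fell by 0.44 ± 0.14 on the log2 scale between E13 and E16 (SE, adjusted p = 0.0128 in edgeR). Ccne1, the cyclin that activates Cdk2 before replication, was at 25.1 to 29.4 CPM at E13 (median 27.6), 21.2 to 28.5 CPM at E14 (median 24.0) and 9.003 to 21.5 CPM at E16 (median 18.7). The E16 teeth were all below the E13 teeth, and 1 of them reached into the range of the E14 teeth. Ccne1 had the largest fall of the G1 genes between E13 and E16, with a log2 fold change of -0.68 ± 0.12 (SE, adjusted p = 8.61e-05 in edgeR).

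Its relative Ccne2 moved otherwise, with 0.40 ± 0.13 from E13 to E14 (SE, adjusted p = 0.0247 in edgeR) and 0.19 ± 0.13 from E13 to E16 (adjusted p = 0.254). Without the E16 left tooth of embryo 3, its value from E13 to E16 was 0.082. Ccne2 was then called lower at E16 than at E14 (-0.32, adjusted p = 0.0196 in edgeR). Cdk6 rose by 0.37 ± 0.093 from E13 to E14 (adjusted p = 0.00631 in edgeR), and its partner kinase Cdk4 fell by 0.37 ± 0.095 from E13 to E16 (adjusted p = 0.0027). The exons of Ccne2 and Cdk4 overlap a gene on the opposite strand over 17.4% and 19.7% of their bases.

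The replication genes moved late. None of 14 rose or fell from E13 to E14 in edgeR, where 1 was higher at an unadjusted p below 0.05 and DESeq2 called 0, and their median log2 fold change was -0.065. From E14 to E16, 12 of 14 fell (median -0.43), and between E13 and E16, 11 of 14 did (median -0.48). All 6 subunits of the Mcm2 to Mcm7 helicase, which unwinds DNA at the fork, fell at E16 against both earlier stages, with log2 fold changes of -0.56 to -0.36 against E14 and -0.61 to -0.48 against E13. All 6 were lowest in the E16 left tooth of embryo 3, and without it the helicase genes had -0.42 to -0.27 against E14 and -0.48 to -0.33 against E13, and each was still called lower. The group then had 12 of 14 lower at E16 than at E14 (median -0.32) and 13 of 14 lower than at E13 (median -0.39).

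Mcm5, a subunit of that helicase, was at 127.7 to 157.5 CPM at E13 (median 144.6), 125.9 to 148.2 CPM at E14 (median 137.8) and 48.1 to 116.7 CPM at E16 (median 102.2). The E13 and E14 teeth overlapped and all E16 teeth were lower. Its log2 fold change was -0.067 ± 0.12 from E13 to E14 and -0.61 ± 0.12 from E13 to E16 (SE, adjusted p = 0.739 and 0.000176 in edgeR). Rrm2, the regulated subunit of ribonucleotide reductase, which makes DNA precursors, was at 87.8 to 119.3 CPM at E13 (median 112.6), 110.7 to 119.8 CPM at E14 (median 115.4) and 28.0 to 77.2 CPM at E16 (median 74.5). All E16 teeth of Rrm2 were again below those of the earlier stages, and it fell by 0.78 ± 0.14 from E14 (adjusted p = 0.000167) and by 0.68 ± 0.14 from E13 (adjusted p = 0.00047 in edgeR). Without the left tooth of embryo 3 these were -0.64 and -0.53.

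Pcna, the sliding clamp of the replication fork and a common marker of proliferation, did not follow the other replication genes. It was at 70.0 to 84.6 CPM at E13 (median 77.0), 74.3 to 110.3 CPM at E14 (median 88.3) and 67.2 to 105.0 CPM at E16 (median 86.9), and the teeth of the 3 stages overlapped. Its log2 difference between E16 and E13 was 0.15 ± 0.10 (SE, adjusted p = 0.231 in edgeR), and the difference between Pcna and the other genes was not tested. Pcna has a named pseudogene copy that could take some of its reads. Gmnn, the inhibitor of the licensing factor Cdt1, was the other replication gene with no call between E14 and E16 (-0.0013 ± 0.13). Gmnn was at 25.8 CPM in the E16 left tooth of embryo 3, above all other E16 teeth, and without that tooth its difference was -0.12 against E14 (adjusted p = 0.423) and -0.25 against E13, where it was called lower (adjusted p = 0.0482 in edgeR).

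The mitosis genes held 5 of the 8 rises from E13 to E14 and 21 of the 41 falls from E14 to E16. From E13 to E14, 5 of 22 rose, with a median log2 fold change of 0.17, and without the E16 left tooth of embryo 3, 14 of 22 did. From E14 to E16, 21 of 22 fell, with a median of -0.49 and Cenpf as the exception (-0.19 ± 0.082, adjusted p = 0.0883 in edgeR). Between E13 and E16, 14 of 22 fell. When the E16 left tooth of embryo 3 was left out, all 22 were lower at E16 than at E14 (median -0.44) and 16 lower than at E13 (median -0.28). Cenpf was then called in both comparisons, with -0.23 and -0.16 (adjusted p = 0.00751 and 0.0459 in edgeR).

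Mki67, which codes for the Ki-67 protein of dividing cells, was at 987 to 1088 CPM at E13 (median 1035), 1143 to 1527 CPM at E14 (median 1304) and 711 to 1248 CPM at E16 (median 1016). Every E14 tooth was above every E13 tooth, and the E16 teeth spanned the range of the E13 teeth. It rose by 0.35 ± 0.10 from E13 to E14 and changed by -0.42 ± 0.10 from E14 to E16 (SE, adjusted p = 0.0132 and 0.00251 in edgeR). Between E13 and E16 its difference was -0.061 ± 0.10 (adjusted p = 0.661 in edgeR), and 0.020 without the E16 left tooth of embryo 3. Per kilobase of exon Mki67 was the most abundant member at E13, with 103.1 CPM.

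Top2a, the topoisomerase that untangles chromosomes, was at 540 to 612 CPM at E13 (median 563), 552 to 654 CPM at E14 (median 614) and 430 to 514 CPM at E16 (median 453). The E16 teeth lay below all others, and unlike for most members the left tooth of embryo 3 was the highest of them. Top2a fell by 0.40 ± 0.063 from E14 to E16 and by 0.29 ± 0.063 from E13 to E16 (SE, adjusted p = 2.59e-05 and 0.000729 in edgeR). Of the pair of common markers, Top2a was thus lower at E16 than at E13 while no difference was called for Mki67, and the difference between the genes was not tested.

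Cdk1 was at 70.4 to 79.9 CPM at E13 (median 73.1), 65.7 to 99.02 CPM at E14 (median 87.7) and 54.7 to 83.5 CPM at E16 (median 57.7). The stages overlapped, with the left tooth of embryo 3 as the highest E16 tooth. Its log2 fold change was 0.21 ± 0.090 from E13 to E14 and -0.27 ± 0.091 from E13 to E16 (SE, adjusted p = 0.101 and 0.0178 in edgeR). Ccnb1, its cyclin partner in mitosis, was at 53.5 to 69.1 CPM at E13 (median 63.4), 60.3 to 81.8 CPM at E14 (median 65.7) and 35.3 to 60.4 CPM at E16 (median 44.5). The E16 teeth of Ccnb1 reached into the range of the earlier stages only through that same tooth of embryo 3, and it fell by 0.49 ± 0.099 between E13 and E16 (adjusted p = 0.000291 in edgeR). Ccna2, the cyclin of S phase and early mitosis, rose by 0.40 ± 0.076 from E13 to E14 (adjusted p = 0.00048 in edgeR), with 12.5% of its exon bases shared with a gene on the opposite strand.

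Cdc20 had the largest fall between E13 and E16 and Bub1b shared its direction. Cdc20, the activator that starts chromosome separation, was at 55.6 to 92.0 CPM at E13 (median 68.0), 57.0 to 83.0 CPM at E14 (median 73.5) and 13.6 to 53.2 CPM at E16 (median 46.9). The E13 and E14 teeth overlapped and all E16 teeth were lower, by 0.79 ± 0.18 on the log2 scale against either stage (SE, adjusted p = 0.00193 and 0.00125 in edgeR) and by 0.62 without the left tooth of embryo 3. Bub1b, a checkpoint protein that holds Cdc20 back, was at 113.0 to 141.8 CPM at E13 (median 124.3), 120.7 to 141.3 CPM at E14 (median 132.5) and 59.9 to 101.4 CPM at E16 (median 94.1). Bub1b separated the E16 teeth from the others in the same way and fell by 0.49 ± 0.09 between E13 and E16 (adjusted p = 9.51e-05 in edgeR). Mad2l1, another checkpoint gene, instead rose by 0.30 ± 0.099 from E13 to E14 (adjusted p = 0.0331) and differed by -0.016 ± 0.099 between E13 and E16 (adjusted p = 0.919 in edgeR). The latter difference was -0.092 without the E16 left tooth of embryo 3.

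Plk1, the kinase of mitotic entry and chosen after its values were seen, had no overlap between the E13 and E14 teeth and a log2 fold change of 0.46 ± 0.20 that was not called (adjusted p = 0.101 in edgeR). It fell by 0.66 ± 0.20 from E14 to E16 (adjusted p = 0.0131 in edgeR). Without the E16 left tooth of embryo 3, where Plk1 was lowest at 13.7 CPM, it was among the genes called higher at E14.

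**Figure D4:**
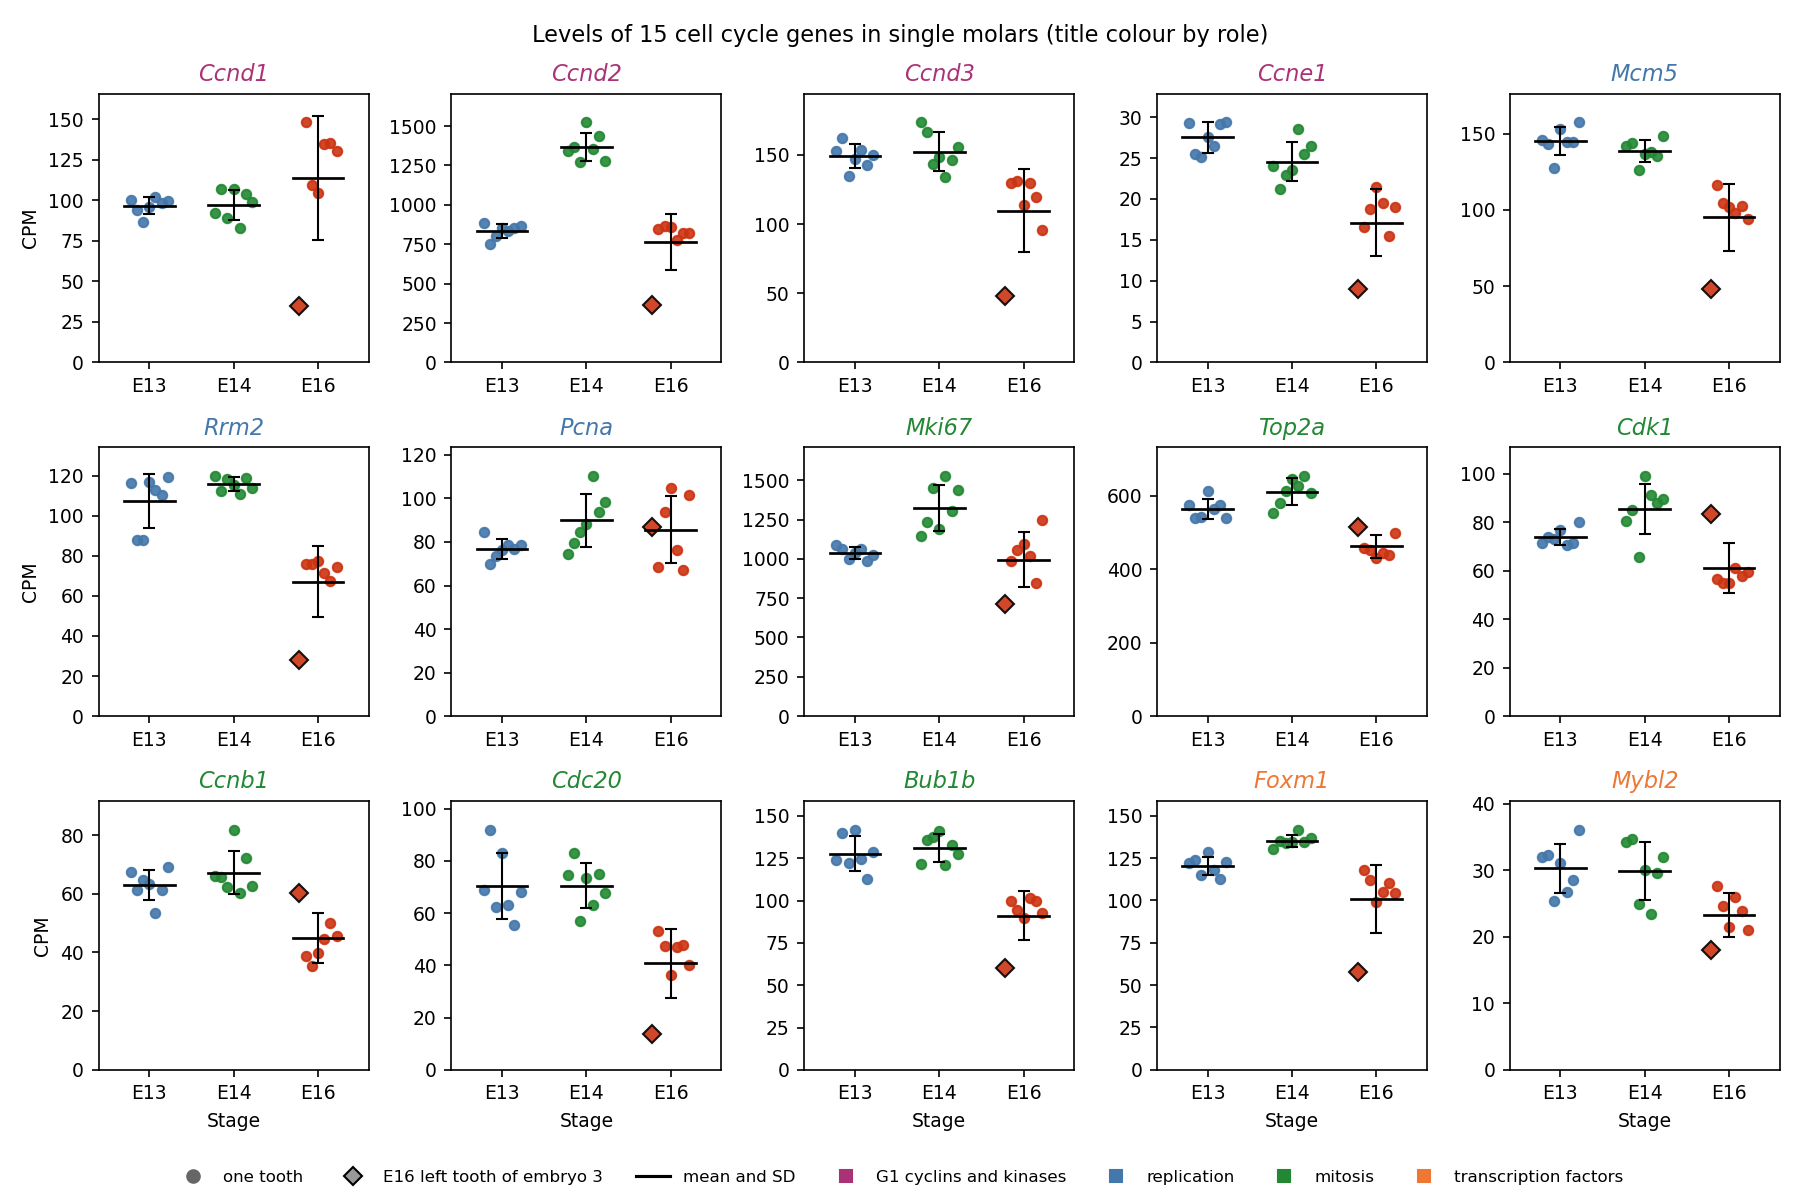
CPM of single teeth (points, y axis from 0) at E13, E14 and E16 for 15 members named in the text, with the mean and SD of each stage. Ccnd2 and Mki67 have their highest teeth at E14, Rrm2, Mcm5 and Cdc20 are lower at E16, and the teeth of Pcna overlap between stages.

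Few transcription factors were called. None of 5 was called from E13 to E14 in edgeR, where 1 was higher at an unadjusted p below 0.05 and DESeq2 called 0, and 2 of 5 fell at E16 against both earlier stages. Foxm1, which activates genes of G2 and mitosis, was at 112.8 to 128.7 CPM at E13 (median 121.9), 130.5 to 141.7 CPM at E14 (median 134.3) and 57.7 to 118.2 CPM at E16 (median 104.9). Each E14 tooth was above each tooth of the other stages, and the log2 fold change was 0.17 ± 0.10 from E13 to E14 and -0.42 ± 0.10 from E14 to E16 (SE, adjusted p = 0.254 and 0.00225 in edgeR). Its fall between E13 and E16, by 0.25 ± 0.10 (adjusted p = 0.044), was lost with DESeq2 and was -0.14 without the E16 left tooth of embryo 3 (adjusted p = 0.0128 in edgeR).

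Mybl2, the B-Myb partner of MuvB, was at 25.4 to 36.1 CPM at E13 (median 31.1), 23.5 to 34.7 CPM at E14 (median 30.1) and 17.96 to 27.6 CPM at E16 (median 23.9). The stages overlapped, and it fell by 0.38 ± 0.11 between E13 and E16 (SE, adjusted p = 0.00504 in edgeR). E2f1, E2f2 and E2f8 were called at no step, with log2 fold changes of -0.25 to -0.15 from E14 to E16. Leaving out the left tooth of embryo 3 gave -0.15 to -0.11, and E2f8 was called higher at E14 than at E13 (0.32, adjusted p = 0.013 in edgeR).

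Other genes of the same pathways were counted from fixed lists that hold none of the members. Of 50 other replication genes, 2 fell and none rose from E13 to E14 in edgeR (1 higher at an unadjusted p below 0.05, 0 in DESeq2). Of all genes, 8.47% fell and 11.3% rose at this step. At E16, 34 of the 50 were lower than at E14 and 34 lower than at E13, where 13.1% and 19.6% of all genes were. Timeless, a fork protection gene, had the largest of these falls and was already lower at E14, with log2 fold changes of -0.36 ± 0.089 from E13 to E14 and -0.91 ± 0.089 from E13 to E16 (SE, adjusted p = 0.00515 and 8.64e-09 in edgeR). The median log2 fold change of this list was -0.060 from E13 to E14 and -0.34 from E14 to E16.

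Of 60 other mitosis genes, 7 rose from E13 to E14 (11.67%) and none fell, where 11.3% of all genes rose and 8.47% fell. The share that rose was thus near that of all genes, and the median was 0.11 against -0.0083. Without the E16 left tooth of embryo 3, 20 rose, where 16.67% of all genes did. From E14 to E16, 49 of 60 fell (median -0.41), where 13.1% of all genes did. At E16, 35 were lower than at E13, where 19.6% of all genes were. Kifc1, a spindle motor, fell by 0.78 ± 0.11 between E13 and E16 (SE, adjusted p = 4.97e-06 in edgeR). The 1 gene of the list called higher was Ube2c, an enzyme of the anaphase promoting complex chosen here after its values were seen, at 0.53 ± 0.21 (adjusted p = 0.0411 in edgeR). DESeq2 called 0 genes of the list higher.

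Of 17 genes of the E2F, RB and MuvB groups, 3 rose and 2 fell from E13 to E14, where 11.3% of all genes rose and 8.47% fell. At E16 against E13, 4 were higher and 5 lower, where 21.6% and 19.6% of all genes were. In these comparisons the shares of the list were near those of all genes. From E14 to E16, 3 rose and 6 fell, where 15% and 13.1% of all genes did, so that a larger share of the list fell. Myb, a relative of Mybl2, was at 9.58 to 11.9 CPM at E13, 8.65 to 12.97 CPM at E14 and 23.8 to 31.6 CPM at E16, with all E16 teeth above the rest, and rose by 1.23 ± 0.096 from E14 to E16 (SE, adjusted p = 5.53e-10 in edgeR).

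The brakes of the cell cycle, 16 tested genes that restrain cyclin-dependent kinases or division, were counted in the same way. From E13 to E14, 6 rose and 1 fell (37.5% and 6.25%, median log2 fold change 0.29), where 11.3% and 8.47% of all genes did. From E14 to E16, 1 rose and 3 fell, where 15% and 13.1% of all genes did. Without the E16 left tooth of embryo 3, 3 rose and 3 fell at this step, with a median of -0.021. At E16 against E13, 9 were higher and 4 lower (56.25% and 25%, median 0.42), where 21.6% and 19.6% of all genes were, and without the left tooth of embryo 3 these were 10 and 4. Cdkn1a, the inhibitor p21 and a known marker of the enamel knot, was at 3.30 to 8.97 CPM at E13 (median 3.92), 16.3 to 27.5 CPM at E14 (median 20.7) and 14.2 to 30.9 CPM at E16 (median 22.7). All E13 teeth of Cdkn1a were below those of the later stages, and it rose by 2.09 ± 0.20 from E13 to E14 (adjusted p = 3.48e-08 in edgeR). Markers of the enamel knot in sum were at 206 to 272 CPM at E13, 396 to 496 CPM at E14 and 334 to 760 CPM at E16. Of these 10 markers, 8 were called higher and 0 lower at E14 than at E13. From E14 to E16 they did not move together, with 4 called higher and 2 lower. The median of Shh went from 56.25 to 171.4 CPM at this step and that of Fgf4 from 7.697 to 2.707 CPM.

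The E15 teeth were set beside the E13 and E16 teeth within the second table, which holds salmon estimated counts and lists 48 of the 50 members, Rrm2 and Ccnb2 being absent from it. Of the 48, 22 were lower at E15 than at E13 and none higher in edgeR (1 higher at an unadjusted p below 0.05, 0 in DESeq2, which called 28 lower), where 8.49% of 13447 genes were lower and 18.3% higher. By role the lower genes were 3 of 9 in G1, 7 of 13 in replication, 10 of 21 in mitosis and 2 of 5 transcription factors. Without the E16 left tooth of embryo 3, 33 were lower and 1, Cdk6, was higher, where 12.88% and 22.08% of all genes were.

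From E15 to E16 no member was called in either direction, where 3.64% of genes were higher and 2.69% lower. At an unadjusted p below 0.05, 1 was higher and 0 lower, and DESeq2 called 1 higher, Cdc45, and 0 lower. Without the E16 left tooth of embryo 3, Ccnd1, Plk1 and Foxm1 were called higher in edgeR. Between E13 and E16 in this table, 42 of the 48 members had a log2 fold change below 0, as did 46.65% of all genes. Of the 48, 22 were called, all lower. Some genes called lower in the first table were not called here, among them Cdk1, Mybl2, Kif11, Ttk and Tyms. The score over the 48 members was 6.78 ± 0.051 at E13 (n = 7), 6.47 ± 0.067 at E15 (n = 6) and 6.50 ± 0.108 at E16 (SD, n = 7). The E15 teeth lay below all E13 teeth and overlapped the E16 teeth.

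Single genes at E15 did not all take this course. Mcm5 was at 146.9 to 178.3 estimated CPM at E13 (median 162.9), 87.6 to 139.5 at E15 (median 107.2) and 57.7 to 131.3 at E16 (median 114.8), and it was lower at E15 than at E13 in every tooth (log2 fold change -0.59 ± 0.14, adjusted p = 0.0023 in edgeR). Ccnb1, at 103.3 to 132.9, 65.3 to 97.5 and 74.4 to 132.8 in the same order, also had no overlap between E13 and E15 (-0.56 ± 0.12, adjusted p = 0.00134). Mki67 split the E15 teeth into a lower and a higher set, around the E13 teeth at 1181 to 1300. It was at 952.4, 907.0 and 965.7 in the E15 teeth of embryos 1, 3 and 4. Those of embryos 5, 6 and 8 had 1848, 1862 and 1919. The median was 1407 and the log2 fold change 0.19 ± 0.17 (adjusted p = 0.432 in edgeR). Cenpf split by the same teeth, at 224.9 to 280.2 and 407.2 to 441.1, whereas Mcm5 did not. Ccna2 also split, at 108.1 to 143.3 and 208.3 to 242.7, and Aurkb split in reverse, at 46.97 to 53.13 and 28.75 to 35.45. The mitosis score was 6.467 to 6.566 in the first set and 6.693 to 6.748 in the second, while the replication scores overlapped. Means over the E15 teeth thus pool unlike sets. The TMM factors of these sets were 1.021 to 1.058 and 0.905 to 0.927. The cause of the split was not tested. Ccnd2 was at 992 to 1099 at E15 (median 1063), near its 872 to 1035 at E13, with 0.11 ± 0.12 (adjusted p = 0.541). The markers in this table also moved, with epithelial sums of 1055 to 1562 at E13, 3135 to 4267 at E15 and 3278 to 4915 at E16, and the part of this in the result was not tested.

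**Figure D5:**
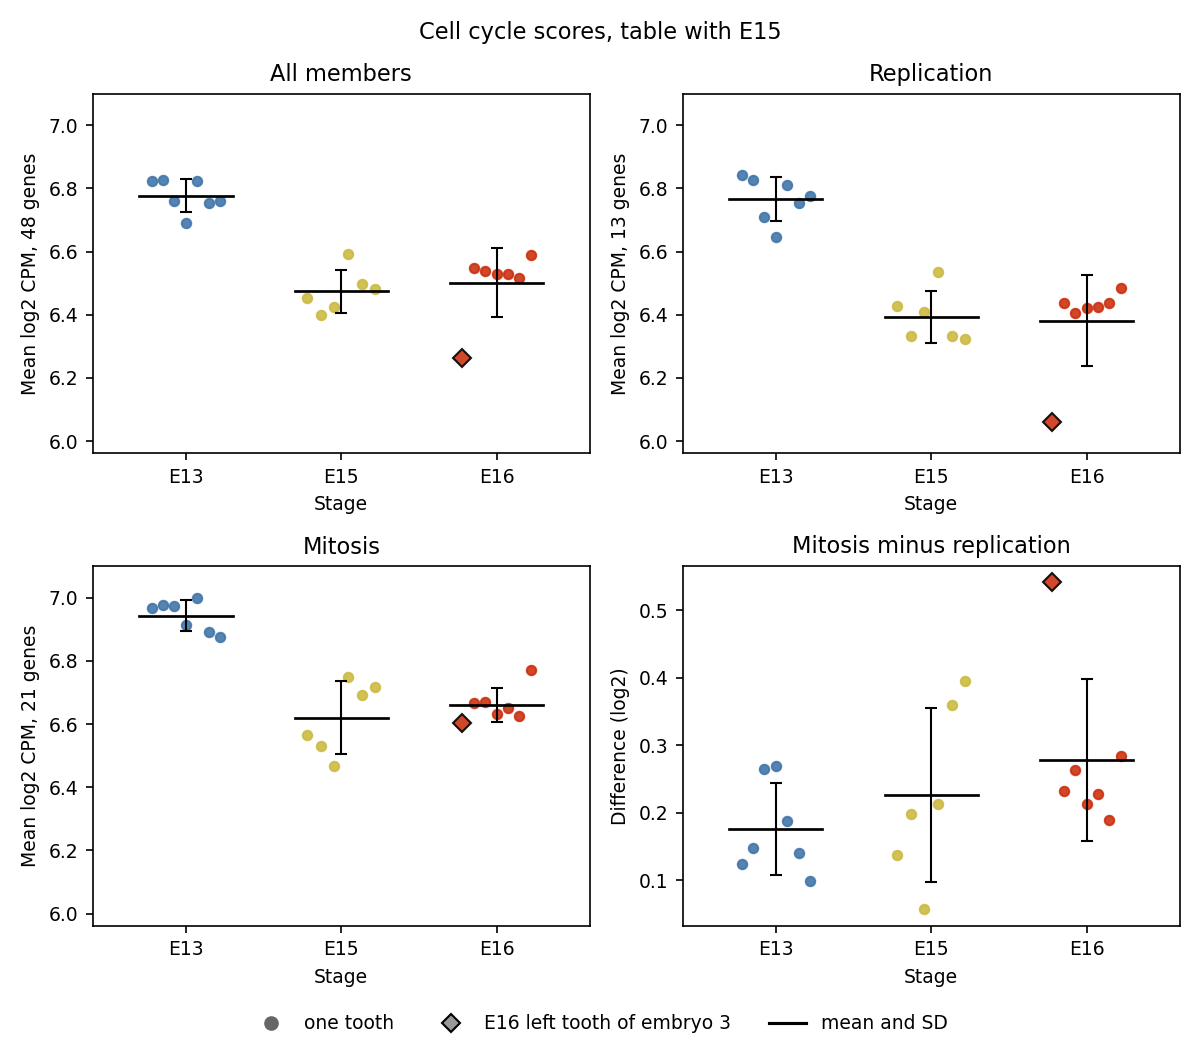
Mean log2 CPM of all listed members, replication genes and mitosis genes and the difference of the last pair, for each tooth (points) at E13 (7 teeth), E15 (6 teeth) and E16 (7 teeth) in the salmon table, with the mean and SD. The E15 teeth lie below the E13 teeth in the scores of all members, replication and mitosis and overlap the E16 teeth.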

How the data were processed

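Each library was made from 1 tooth germ. For the E13, E14 and E16 teeth the authors deposited raw HTSeq counts, made from STAR alignments to GRCm38 with Ensembl annotation after read filtering (FastQC, AfterQC, Trimmomatic). For the table with E15 they deposited whole-number estimated counts, for which the submitters' processing notes name FastQC 0.11.8, Trimmomatic 0.39 and Salmon 0.99.0. Whether counting used strand was not given in the sources used here. Exons of 18 members overlap another gene, over more than 10% of exon bases for 7, all on the opposite strand, and 5 members (Ccnb1, Ccnb2, Ccnd3, Pcna and Tyms) have a named pseudogene copy, so that their counts are less certain.

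Counts were fitted in edgeR 4.0.16 (R 4.3.3) with 1 factor for stage over all 21 teeth, TMM scaling, the filterByExpr filter and the quasi-likelihood test. Adjusted p-values follow Benjamini and Hochberg over all tested genes, and those below 0.05 made a call. The 20 teeth of the E15 table were fitted separately in the same way, and levels were not compared between tables. One E15 sample had no column and was not analysed here. The biological coefficient of variation was 21.15% in the first table and 22.67% in the second, above the counting error of the members at these depths. Alternatives were DESeq2 1.42.0, its size factors, no filter on low counts, teeth of an embryo summed, a term for side, a term for embryo number, and each tooth left out. The scripts were tested on simulated data.

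Members and lists were chosen with earlier results of these data known. Genes given with values per stage were Mki67, Top2a, Pcna, Ccnd1, Ccnd2, Cdk1 and Ccnb1, and the 2 genes of each role with the largest called change between E13 and E16. Up to 3 called genes of each pathway list were named by the same measure. Other genes named with values were picked after these were seen. Embryo numbers were checked as pairs. Deviations from the stage mean of teeth with the same number at different stages correlated with r of -0.09 to 0.199 (15 pairs). Left and right teeth of the same embryo had r of -0.088 to 0.166 (3 pairs), so that this check could not show a pairing. Since the numbers name different embryos at each stage, they were not taken to pair the teeth. No 2 libraries of a stage agreed within counting noise.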

Additional observations from a re-analysis of the deposited data

Results flagged for a closer look

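In groups of 7 teeth, a single tooth was marked when its gap to the nearest other tooth exceeded 0.568 of the range of its stage, which chance alone gives in about 1 in 20 groups. Of the 150 gene and stage groups and 12 score groups, 32 were marked, and 28 of them by the left tooth of embryo 3 at E16.

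In that tooth the mean log2 CPM was 5.756 over all members, 5.48 over replication genes and 6.099 over mitosis genes, each the lowest of the 7 E16 teeth, while mitosis minus replication was the highest at 0.6187. It was the lowest E16 tooth for the G1 genes Ccnd1 (34.65 CPM), Ccnd2 (365.9 CPM), Ccnd3 (48.18 CPM), Cdk4 (153.1 CPM) and Cdk6 (109.4 CPM). Among replication genes it was the lowest for Cdc6 (15.27 CPM), Cdt1 (12.49 CPM), Mcm2 (41.39 CPM), Mcm3 (32.57 CPM), Mcm4 (59.54 CPM), Mcm5 (48.13 CPM), Mcm7 (52.89 CPM) and Rrm2 (28.0 CPM). Among mitosis genes and their activators it was the lowest for Plk1 (13.72 CPM), Aurka (15.89 CPM), Aurkb (21.97 CPM), Bub1b (59.87 CPM), Cdc20 (13.62 CPM), Kif20a (52.65 CPM) and Foxm1 (57.7 CPM). It was the highest E16 tooth for Ccne2 (48.03 CPM), Gmnn (25.83 CPM), Tyms (78.25 CPM) and Cdk1 (83.48 CPM). The members thus moved in both directions in this tooth, whose depth, TMM factor and relation to GC content also stood apart.

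Outside that tooth, Cdc6 was at 23.72 CPM in the E14 right tooth of embryo 3, Gmnn at 21.67 CPM in an E13 left tooth and at 11.1 CPM in the E14 right tooth of embryo 1, and Ccnb2 at 75.21 CPM in the E14 left tooth of embryo 6.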

How the results depend on the processing

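Of the counts of called members and the scores under all alternatives, 485 values were classed as unchanged and 15 were not. A score was classed as unchanged if it moved by less than the spread between teeth. A count was so classed despite moderate change. One such count went from 22 to 33 members lower at E15 than at E13, without the E16 left tooth of embryo 3. For members higher at E14 than at E13 (8), the count was 5 with no filter on low counts, 3 with embryo number as a replicate block, and 4 to 19 with 1 tooth left out. The 3 kept under the block were Ccnd2, Cdk6 and Ccna2. Since the numbers name different embryos at each stage, the block tests only a shared number. It gave 41 members lower at E16 than at E14 and 25 lower at E16 than at E13. Leaving out 1 tooth gave 0 to 1 members lower at E14 than at E13, 0 to 1 higher at E16 than at E14 and 0 to 2 higher at E16 than at E13, where the left tooth of embryo 3 at E16 gave the highest values and the E13 left tooth with no embryo number in the first table gave Cdk6 alone. In the table with E15 it gave 0 to 1 higher and 18 to 33 lower at E15 than at E13 and 0 to 3 higher at E16 than at E15, where DESeq2 gave 1. Leaving out teeth of a stage that only shared the fit was chosen after seeing the data. With medians in place of means, the mitosis score differed between E14 and E13 by 0.2523, and mitosis minus replication differed by 0.0523 between E16 and E14 (-0.086 with means) and by 0.2739 between E16 and E13. The cause of these shifts was not tested, beyond the left-out tooth itself.

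For single members, 3926 values were unchanged in direction and call, 143 lost and 29 gained a call, and none reversed. The fall of Foxm1 between E13 and E16 was lost most often, under 23 settings. Of the rises from E13 to E14, that of Kif23 was lost under 15, of Mad2l1 under 9 and of Ccne2 under 6. The lowest count of a member in a tooth was 191.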

Other observations

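Further genes of the pathway lists are given here as values. Lig1, the ligase that joins fragments of new DNA, was at 120.1 to 155.5 CPM at E13, 120.7 to 129.0 CPM at E14 and 49.3 to 99.6 CPM at E16, and Pold1, the catalytic subunit of a replicative polymerase, was at 87.0 to 108.8, 60.2 to 88.3 and 37.2 to 73.4 CPM. Both had all E16 teeth below the E13 teeth and fell between these stages, by 0.67 ± 0.11 and 0.66 ± 0.11 on the log2 scale (SE, adjusted p = 1.65e-05 and 3.52e-05 in edgeR). The cohesin regulator Cdca5 fell by 0.76 ± 0.14 and the condensin subunit Ncapd2 by 0.68 ± 0.12 between the same stages (adjusted p = 0.000133 and 7.97e-05 in edgeR).

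E2f3, an activating E2F, fell by 0.61 ± 0.084 between E13 and E16 (SE, adjusted p = 2.29e-06 in edgeR), while Lin37, a subunit of MuvB, rose by 0.66 ± 0.16 (adjusted p = 0.00136). Lin37 was at 6.22 to 11.2 CPM at E13 and 7.35 to 18.7 CPM at E16, with overlapping teeth. Among the brakes, Gadd45g, a stress-induced inhibitor of growth, was at 4.44 to 13.4 CPM at E13, 10.3 to 22.2 CPM at E14 and 5.75 to 16.7 CPM at E16, and rose by 1.06 ± 0.23 from E13 to E14 (adjusted p = 0.00156 in edgeR). Cdkn2b, an inhibitor of Cdk4 and Cdk6, stayed low, at 0.085 to 0.69 CPM at E13 and 0.47 to 1.43 CPM at E16, with a log2 fold change of 1.41 ± 0.38 (adjusted p = 0.00453 in edgeR).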
